A study of Mus musculus with 6 samples.

Results

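The genes of glycolysis, gluconeogenesis, fructose use and glycogen turnover were examined in the livers of male C57BL/6 mice. The members were chosen by symbol, as enzymes, carriers and regulators of these routes, with earlier results of these data known. Of the 48 listed symbols, 47 were found among the 55802 symbols of the count files. The missing symbol, G6pc1, is the newer name of G6pc, which was present. All 47 passed the filter on low counts and are among the 17662 genes tested. RNA sequencing covered 3 liver libraries of males fed chow containing polystyrene microplastic (PS-MP) and 3 of males fed normal chow (control), all reared for 71 weeks. Particle size, dose, feeding state and hour of sampling are not in the labels. Nor do the labels say whether each replicate is its own animal, so the p-values rest on the spread among these libraries, which may be technical.

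The liver takes up glucose after a meal, burns it by glycolysis or stores it as glycogen, and between meals it releases glucose made from glycogen or, by gluconeogenesis, from lactate, amino acids and glycerol. Glucagon, acting through cyclic AMP, and fasting raise the genes of gluconeogenesis, while insulin represses them and raises those of glycolysis and lipid synthesis. Many of these genes also follow the circadian clock.

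Libraries held 79081889 to 79691824 counts in PS-MP and 68357478 to 112566641 in control, and the members took 0.894% to 0.989% of the counts in PS-MP and 0.770% to 0.981% in control. Hepatocyte markers were high in every library, at a sum of 61162 to 80659 CPM (counts scaled to library size and by trimmed mean of M values) in PS-MP and 57927 to 70164 CPM in control. Ribosomal RNA of the row Rn18s-rs5 took 0.387% to 1.14% of the counts in PS-MP and 1.15% to 11.2% in control, highest in control replicate 2. Its part in the results was not tested beyond removing that row, which left the number of members called at 0.

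None of the 47 members differed between diets past the threshold, an edgeR adjusted p under 0.05 over all genes, which 0.0113% of the 17662 genes tested passed. The smallest adjusted p of a member was 0.512, for Eno3. At an unadjusted p under 0.05 there were 6 members, 4 higher in PS-MP (Eno3, Slc37a4, Sik1 and Gckr) and 2 lower (Pfkfb3 and Pygl), against 5.38% of all genes tested (2.8% higher and 2.58% lower). limma-voom called 0 members, with 0.00566% of all genes called, and DESeq2 called 1, Eno3, with 1.06% of all genes (187) called. The PS-MP and control libraries did not overlap for 5 members, 4 higher in PS-MP and 1 lower, where the same held for 11.2% of all genes (6.24% higher and 4.99% lower). In bulk liver, fewer cells of a type and less RNA per cell cannot be told apart.

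The summed markers of 3 other cell types did not overlap between the diets either, and each sum was higher in PS-MP, as 4 of those 5 members were. The 7 markers of Kupffer cells, the macrophages of the liver, summed to 153 to 168 CPM in PS-MP and 108 to 143 CPM in control, the 7 red cell markers to 571 to 848 CPM in PS-MP and 263 to 504.3 CPM in control, and the 7 neutrophil markers to 1.46 to 6.33 CPM in PS-MP and 0.681 to 0.969 CPM in control. All 7 Kupffer markers tested were above 0 in log2 fold change, as were 5 of 6 red cell and 3 of 3 neutrophil markers tested. So were all 6 hepatocyte and all 6 sinusoidal endothelial markers, and 9321 of the 17662 genes tested. The median was 2.04 for neutrophil, 0.79 for red cell, 0.34 for Kupffer, 0.27 for sinusoidal endothelial and 0.22 for hepatocyte markers. This direction was not particular to the 3 cell types, but among these lists its size was largest for neutrophil and red cell markers. The sums of sinusoidal endothelial, stellate, bile duct, fat and lymphocyte markers overlapped between diets. The part of these cells in the members' values was not tested.

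The log2 fold change, PS-MP minus control, was below 0 for 29 of 47 members (61.7%) against 47.2% of all genes, but for 11 of 47 when counts were scaled by library size alone. The median was -0.07 over the members and 0.02 over all genes, and with library size alone these were 0.14 and 0.23, a shift of 0.21 over all genes. The factors of the trimmed mean of M values did not overlap between diets, at 1.04 to 1.11 in PS-MP and 0.891 to 0.957 in control. As all genes shifted, the drop to 11 is not particular to the members, whose median stayed below that of all genes. With DESeq2-type size factors and with upper quartile scaling the shift over all genes was -0.004 and 0.022, and 1 member changed sign under each. For 33 members (70.2%) the 95% interval of the difference lay inside a 2-fold change in either direction, as it did for 53.6% of all genes. The 3 PS-MP values lay inside the range of the 3 control values for 15 members, as they did for 23.1% of all genes.

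**Figure D1:**
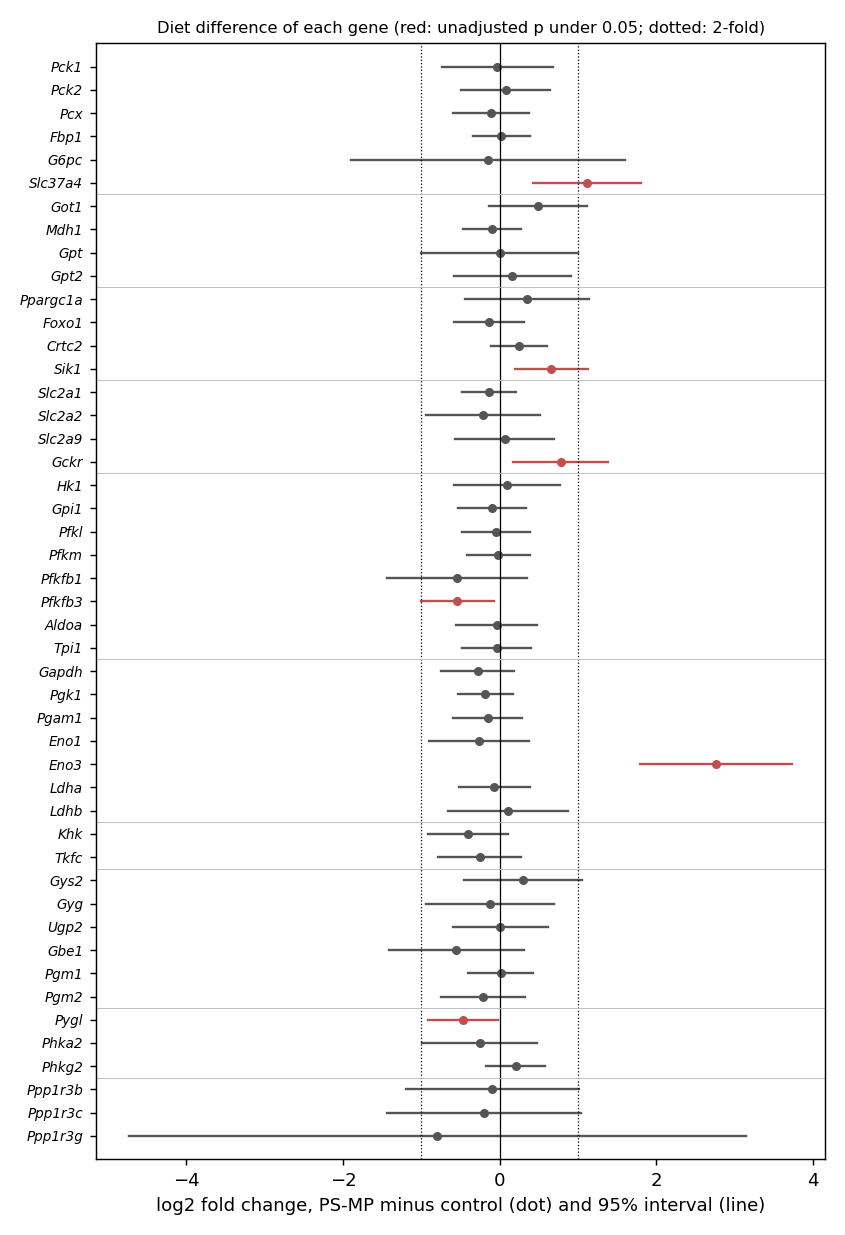
Log2 fold change of each of the 47 genes, PS-MP minus control, as a dot with its 95% interval as a line, in order of role and with red for an unadjusted edgeR p under 0.05. Most intervals cross 0 and 33 lie between the dotted lines at a 2-fold change, while Eno3 stands furthest to the right at 2.76 and Ppp1r3g has the widest interval.

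The main enzymes of gluconeogenesis had levels that the diets shared. Pck1, the cytosolic carboxykinase that commits carbon to glucose, had 2353, 1782 and 1953 CPM in PS-MP against 2304, 2670 and 1246 CPM in control. The lowest and the highest of these libraries were both controls, and the log2 fold change was -0.03 (95% interval -0.74 to 0.68). Fbp1, the fructose bisphosphatase of the route, averaged 853 ± 76.5 CPM in PS-MP and 840 ± 98.7 in control (SD, n = 3 each), with an interval of -0.34 to 0.38. Pcx, which makes oxaloacetate from pyruvate, had a log2 fold change of -0.11, and Pck2, the mitochondrial carboxykinase, 0.08. All 4 of these intervals lay inside 2-fold.

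Glucose 6-phosphate leaves the route through a transporter and a phosphatase of the endoplasmic reticulum, and their genes differed from each other in pattern. Slc37a4, the transporter, had 93.2, 66.5 and 65.8 CPM in PS-MP against 21.8, 44.7 and 37.4 CPM in control. Every PS-MP library was above every control library, and the log2 fold change was 1.12 (SE 0.29, edgeR adjusted p = 0.767), with a 95% interval of 0.42 to 1.81. With DESeq2 its adjusted p was 0.0718. G6pc, the catalytic phosphatase subunit, had 102, 42.3 and 338 CPM in PS-MP against 204, 235 and 95.1 CPM in control, so PS-MP held both the lowest and the highest library. Its highest library was 7.99-fold its lowest, and the interval, -1.90 to 1.61, leaves room for more than a 2-fold difference in either direction. Its log2 fold change, -0.15 with all libraries, became -1.31 when PS-MP replicate 3 was left out and 0.31 when PS-MP replicate 2 was.

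The 250 bases before the start sites of Pck1 and G6pc, which hormones of fasting act on, and of Slc37a4 are shown. These 3 genes of the same route differed in their pattern over the libraries. The SD of log2 CPM within diets was 0.44 for Pck1, 0.43 for Slc37a4 and 1.17 for G6pc. The sequences are RefSeq's for GRCm38.p6, an earlier build than the GRCm39 named for the counts, each 5′ to 3′ on the + strand. Capitals mark matches on either strand to ACGTCA, the core of the cyclic AMP response element, and to TATAAA. The regions are chr2:173152823-173153072 for Pck1, chr11:101367466-101367715 for G6pc and chr9:44396696-44396945 for the most upstream of the 3 Slc37a4 starts listed.
Pck1: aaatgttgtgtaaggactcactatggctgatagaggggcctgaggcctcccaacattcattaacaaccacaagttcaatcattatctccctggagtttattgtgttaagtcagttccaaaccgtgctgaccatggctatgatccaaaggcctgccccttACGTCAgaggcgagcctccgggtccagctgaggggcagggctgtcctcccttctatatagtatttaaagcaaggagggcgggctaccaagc
G6pc: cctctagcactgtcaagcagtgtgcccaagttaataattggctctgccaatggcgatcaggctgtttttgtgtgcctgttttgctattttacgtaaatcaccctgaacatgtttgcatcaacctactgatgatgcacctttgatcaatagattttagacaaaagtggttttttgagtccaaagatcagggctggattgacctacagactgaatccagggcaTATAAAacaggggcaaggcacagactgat
Slc37a4: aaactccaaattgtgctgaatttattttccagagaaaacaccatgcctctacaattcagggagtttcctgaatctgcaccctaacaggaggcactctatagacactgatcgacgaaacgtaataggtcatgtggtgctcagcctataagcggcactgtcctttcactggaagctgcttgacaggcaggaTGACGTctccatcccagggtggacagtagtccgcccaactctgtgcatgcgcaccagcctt
ACGTCA lies 91 to 86 bases before the Pck1 start, its reverse 61 to 56 bases before this Slc37a4 start, and TATAAA 29 to 24 bases before that of G6pc. TATAAA also lies 32 to 27 bases before another of the Slc37a4 starts, whose window is not printed. ACGTCA or its reverse was found in 6.46% of 32817 such windows over all genes and in 7 of 59 windows of members. These belong to 6 genes, Ldha, Pck1, Pfkfb3, Ppargc1a, Ppp1r3g and Slc37a4. The same Slc37a4 site is counted more than once, as windows of its neighbouring starts overlap. TATAAA or its reverse was in 12.4% of all windows and in 4 of the members' windows. CACGTG, the E-box, was in 6.02% of all windows and in 6 of the members' (Khk, Ldha, Pcx, Pfkfb3, Pfkm and Ppp1r3c), and TGTTTAC, a forkhead motif, in 3.16% and in 0. None of these motifs overlaps another in the printed sequences, and a match is a run of letters, not a measured site.

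The regulators of gluconeogenesis were low to moderate in level. Sik1, a kinase that holds the coactivator CRTC2 out of the nucleus and is itself a target of cyclic AMP, had 11.2, 10.2 and 13.9 CPM in PS-MP against 7.34, 8.54 and 6.48 CPM in control. These groups did not overlap (log2 fold change 0.66, SE 0.19, 95% interval 0.20 to 1.12, edgeR adjusted p = 0.805). Foxo1, the forkhead factor that insulin inhibits, had 39.3, 38.2 and 29.8 CPM in PS-MP against 47.5, 33.03 and 37.4 CPM in control, an overlap with a log2 fold change of -0.14. Crtc2 had 0.25 and the coactivator gene Ppargc1a 0.35, with 8.51 ± 2.19 CPM in PS-MP and 6.70 ± 2.37 CPM in control (SD, n = 3 each).

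Genes that supply carbon from amino acids and shuttle reducing power overlapped between diets. Mdh1, the cytosolic malate dehydrogenase, had 460, 430 and 446 CPM in PS-MP against 534, 389 and 510 CPM in control, so the PS-MP libraries lay within the control range. Got1, the aspartate aminotransferase, was high in PS-MP replicate 1 alone, at 389 CPM where the other libraries lay between 172 and 225. Its log2 fold change was 0.49 with all libraries and 0.15 without that library. The alanine aminotransferase genes Gpt and Gpt2 had log2 fold changes of 0.00 and 0.16, and for Gpt the interval, -0.998 to 0.999, filled the space between the 2-fold bounds.

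Among transporters and sensors, Gckr stood apart. Its product is a regulatory protein of hepatocytes that responds to fructose phosphates. It had 84.3, 66.9 and 68.4 CPM in PS-MP against 52.9, 47.2 and 27.7 CPM in control, with no overlap (log2 fold change 0.78, SE 0.25, 95% interval 0.18 to 1.39, edgeR adjusted p = 0.831). Leaving out control replicate 3, the lowest, gave 0.55. In an annotation of an earlier build, Fndc4, the protein-coding gene before Gckr, overlapped between diets. It had 27.85, 19.95 and 24.9 CPM in PS-MP against 24.4, 23.5 and 21.3 CPM in control. The protein-coding gene after Gckr, Zfp512, had 5.002, 7.93 and 5.87 CPM in PS-MP against 1.03, 2.66 and 2.85 CPM in control. Any part of its reads in the Gckr counts was not tested. Slc2a2, the main glucose carrier of hepatocytes, had 200, 238 and 111 CPM in PS-MP against 194, 175 and 266 CPM in control, which overlap widely (log2 fold change -0.21). Slc2a9, a carrier of urate, had 0.06, and Slc2a1, the carrier of most other tissues, had -0.14 at 10.1 ± 0.387 CPM in PS-MP and 11.1 ± 0.911 CPM in control (SD, n = 3 each).

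The glycolytic genes overlapped between diets apart from Eno3 and Pfkfb3. Tpi1, the triose phosphate isomerase, had 373, 303 and 338 CPM in PS-MP against 397, 270 and 373 CPM in control. Ldha, the lactate dehydrogenase subunit A, had 618, 550 and 820 CPM in PS-MP against 749, 614 and 722 CPM in control. Control replicate 1 was the highest library for 10 of the 15 glycolysis genes, and the lowest was control replicate 2 for 6 and PS-MP replicate 2 for another 6. Of these 15 genes, 12 had a log2 fold change below 0, where 47.2% of all genes did. Of those 12, 10 lay between -0.28 and -0.02. Scaling by library size alone brings a shift of 0.21 over all genes. It can change such signs but is no measure of a gap from all genes. Removing control replicate 1 gave Eno1 0.00 and Gapdh -0.15, where all libraries gave -0.26 and -0.28.

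Eno3 had the largest difference of the 47 genes. It encodes the beta subunit of enolase, best known from skeletal muscle. Counts were 234, 232 and 326 in PS-MP against 17, 39 and 52 in control, which are 2.84, 2.63 and 3.81 CPM against 0.234, 0.641 and 0.492 CPM. The lowest PS-MP library was well above the highest control library, and the fold was 6.79, with a 95% interval of 3.46 to 13.3. On the log2 scale this is 2.76 (SE 0.41, edgeR adjusted p = 0.512). DESeq2 called it (adjusted p = 1.79e-07), while limma-voom gave an adjusted p of 0.361. With any library left out the log2 fold change stayed between 2.45 and 3.07. Of 6 skeletal muscle markers, Acta1, Ckm, Tnnt3, Tnni2 and Myh4 had 0 counts in every library, and the summed level was 0.437 to 0.612 CPM in PS-MP and 0.441 to 0.706 CPM in control. The genes beside Eno3 in the earlier build, Pfn1 and Spag7, overlapped between diets, at 164 to 181 CPM in PS-MP and 164 to 216 CPM in control for Pfn1 and 2.37 to 6.36 CPM in PS-MP and 1.97 to 9.56 CPM in control for Spag7. The 250 bases before the Eno3 start, chr11:70656926-70657175 on the + strand of GRCm38.p6, are given because this gene differed most. They held none of the 4 motifs.
Eno3: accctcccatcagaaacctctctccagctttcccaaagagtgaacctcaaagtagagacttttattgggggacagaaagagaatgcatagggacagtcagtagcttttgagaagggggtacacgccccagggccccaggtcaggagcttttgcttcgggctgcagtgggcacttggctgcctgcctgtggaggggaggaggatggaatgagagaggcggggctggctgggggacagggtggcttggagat
Its level was low beside that of its relative: per kilobase of exon, Eno1 was 53.3 to 59.0 times Eno3 in PS-MP and 227 to 1178 times in control.

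Pfkfb3 and Pfkfb1 make enzymes that set fructose 2,6-bisphosphate, the allosteric switch between glycolysis and gluconeogenesis. Pfkfb3, the form that favours glycolysis, had 2.16, 2.75 and 2.35 CPM in PS-MP against 3.39, 3.71 and 3.49 CPM in control. No PS-MP library reached the lowest control library (log2 fold change -0.54, SE 0.19, 95% interval -1.01 to -0.08, edgeR adjusted p = 0.898). Pfkfb1, the liver form, averaged 8.77 ± 3.64 CPM in PS-MP and 12.7 ± 3.22 CPM in control (SD, n = 3 each), with the same log2 fold change of -0.54 but a wide interval, -1.43 to 0.35. Periportal markers, of the zone where gluconeogenesis is highest, summed to 3545 to 5646 CPM in PS-MP and 3378 to 4576 CPM in control, and pericentral markers, of the zone where glycolysis is highest, to 8999 to 10312 CPM in PS-MP and 6821 to 12752 CPM in control. Both sums overlapped between diets, and Cyp2e1 made up most of the pericentral one. Of the 7 periportal markers 5 were above 0 in log2 fold change (median 0.23), and of the 8 pericentral markers 7 were below 0 (median -0.25). Of all genes, 47.2% were below 0. Glul, the pericentral glutamine synthetase, was lower in every PS-MP library (log2 fold change -0.59, SE 0.20, edgeR adjusted p = 0.869). It was the only 1 of the 8 pericentral markers without overlap, and for 4 of the 8 the PS-MP values lay inside the control range. Any part of zonation in the members' values was not tested.

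**Figure D2:**
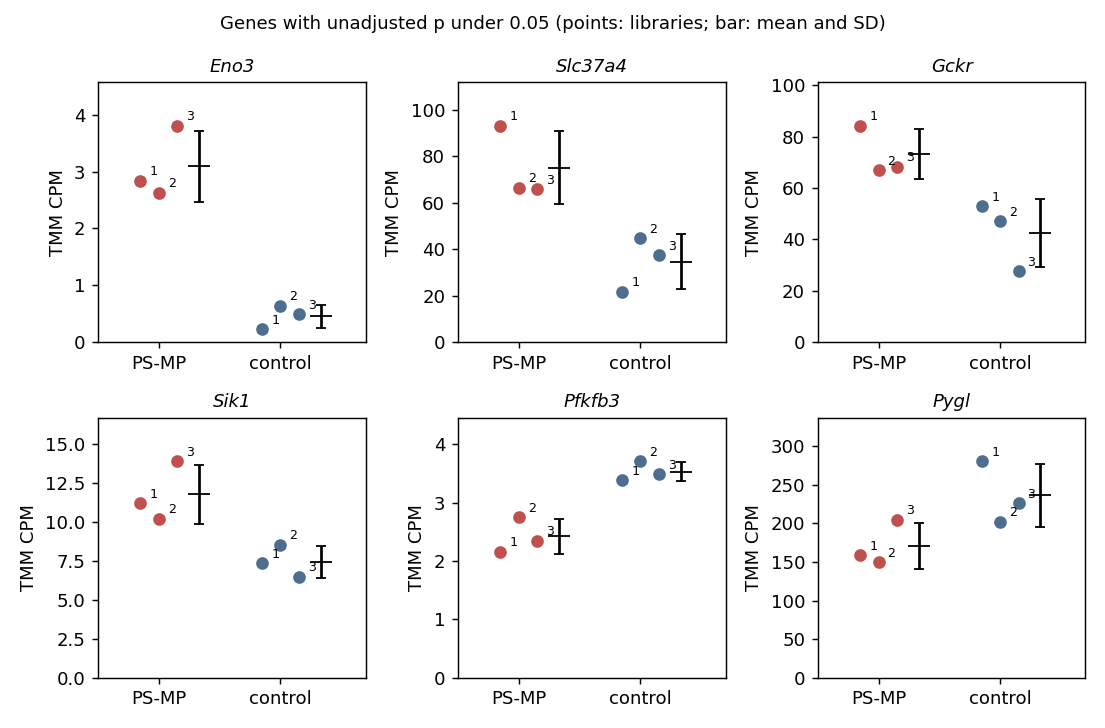
CPM in each library, numbered by replicate, of the 6 genes with an unadjusted edgeR p under 0.05, with PS-MP on the left of each panel, control on the right, and the mean with its SD (n = 3) beside the points. Eno3, Slc37a4, Gckr and Sik1 are higher in every PS-MP library and Pfkfb3 lower in every PS-MP library, while Pygl overlaps.

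The fructose genes were lower in mean in PS-MP. Khk, the ketohexokinase that starts fructose breakdown, had 249, 226 and 302 CPM in PS-MP against 438, 272 and 321 CPM in control. The PS-MP libraries reached into the control range, and control replicate 1 was the highest. Its log2 fold change was -0.41 (95% interval -0.92 to 0.10), and -0.19 without control replicate 1. Tkfc, the triokinase that follows, had -0.26 with all libraries and -0.07 without control replicate 1.

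Glycogen genes were read by their step, breakdown first. Pygl, the liver phosphorylase that releases glucose from glycogen, had 158, 150 and 205 CPM in PS-MP against 281, 202 and 226 CPM in control. PS-MP replicate 3 was just above control replicate 2, and the log2 fold change was -0.47 (SE 0.19, 95% interval -0.91 to -0.02, edgeR adjusted p = 0.921). With library size alone Pygl had -0.26 and Pfkfb3 -0.33, and neither passed an unadjusted p of 0.05. The phosphorylase kinase subunits Phka2 and Phkg2 had -0.26 and 0.20. On the side of synthesis, Ugp2, which makes UDP-glucose, had 311, 365 and 224 CPM in PS-MP against 217, 357 and 320 CPM in control, an almost complete overlap (log2 fold change 0.01). Gys2, the liver glycogen synthase, had 0.30 and Pgm1, a phosphoglucomutase, 0.01. Gbe1, the branching enzyme, had 46.1, 47.1 and 46.9 CPM in PS-MP, nearly 1 value, against 81.0, 32.3 and 92.1 CPM in control. Its log2 fold change of -0.55 was -0.89 without control replicate 2 and -0.28 without control replicate 3.

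The subunits that bring protein phosphatase 1 to glycogen varied from library to library within each diet. Ppp1r3c had 62.8, 36.0 and 147 CPM in PS-MP against 98.3, 122 and 62.6 CPM in control. Ppp1r3b, the main subunit of liver, had 28.4, 35.5 and 73.97 CPM in PS-MP against 46.4, 72.8 and 28.1 CPM in control. Ppp1r3g, which is induced by fasting in mouse liver, had 1, 2 and 75 counts in PS-MP against 46, 59 and 1 counts in control. In all 3 of these genes and in G6pc the same 3 libraries, PS-MP replicate 3 and control replicates 1 and 2, were the highest, and the other 3 were the lowest. With that spread the log2 fold changes by diet, -0.20 for Ppp1r3c, -0.10 for Ppp1r3b and -0.80 for Ppp1r3g, had intervals wider than 2-fold in both directions. Of the 47 genes, 3 had a highest library over 5-fold the lowest, Ppp1r3g, G6pc and Eno3, against 15.4% of all genes tested.

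The region before the Ppp1r3g start, chr13:35967656-35967905 on the + strand of GRCm38.p6, was chosen after the values were seen because this gene varied most. Capitals mark the reverse of ACGTCA, 40 to 35 bases before the start.
Ppp1r3g: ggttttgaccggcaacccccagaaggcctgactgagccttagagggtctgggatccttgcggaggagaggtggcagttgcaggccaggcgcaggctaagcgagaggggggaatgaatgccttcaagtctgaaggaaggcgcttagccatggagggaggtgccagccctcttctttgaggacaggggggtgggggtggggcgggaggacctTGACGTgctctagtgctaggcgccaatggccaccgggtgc
The same motif stands before Pck1, whose levels spanned 2.14-fold over the 6 libraries. Any part of the motif in the levels of either gene was not tested.

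**Figure D3:**
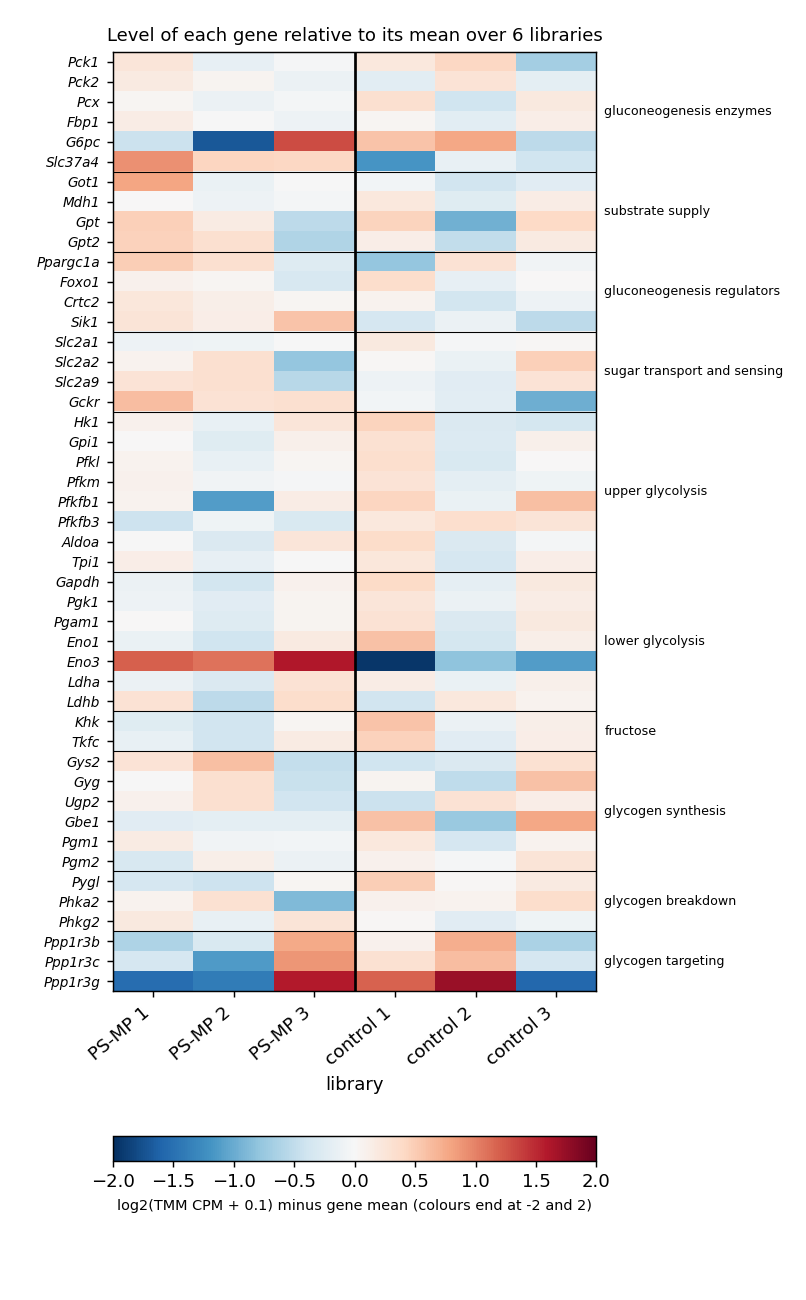
Level of the 47 genes in each library as log2(CPM + 0.1) minus the mean of the gene over 6 libraries, with PS-MP libraries left of the line, control libraries right of it, and genes in order of role. Eno3 is red in the 3 PS-MP libraries and blue in the 3 control libraries, while G6pc and the glycogen-targeting subunits are red in PS-MP replicate 3 and control replicates 1 and 2.

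Other members had the opposite order. Slc2a2 and Slc2a9 were lowest in PS-MP replicate 3, then in control replicate 2 and control replicate 1. Gys2 was lowest in the same 3 libraries, at 41.6 CPM in PS-MP replicate 3 and 43.8 and 47.3 CPM in control replicates 1 and 2, and it reached 70.5 and 88.0 CPM in PS-MP replicates 1 and 2 and 71.5 CPM in control replicate 3. In all, PS-MP replicate 3 and control replicates 1 and 2, picked here by their G6pc level, were the highest 3 libraries for 4 of the 47 members. G6pc is among those 4 by that choice. The same libraries were the lowest 3 for 4 (Slc2a2, Slc2a9, Gys2 and Gpt2), and 11.4% of all genes tested showed one or the other. Of 16 circadian clock genes tested, these libraries were the highest 3 for 4 and the lowest 3 for 8, and neither held for Clock, Per1, Tef and Hlf. The clock genes and Pdk4 described next were named after their values were seen. Dbp, a clock output factor, had 35.7, 78.2 and 0.911 CPM in PS-MP against 2.01, 2.23 and 44.3 CPM in control, and the clock factor gene Arntl had 3.96, 1.33 and 8.14 CPM in PS-MP against 11.9, 13.1 and 3.37 CPM in control. Per3, of the negative limb, had 9.35, 11.2 and 0.934 CPM in PS-MP against 0.578, 0.509 and 4.47 CPM in control. Pdk4, a fasting-induced kinase that blocks pyruvate entry into mitochondria, had 1.59, 1.73 and 14.9 CPM in PS-MP against 13.7, 15.2 and 4.80 CPM in control. The clock list of 16 genes had 1 gene at an unadjusted p under 0.05 (Per2, log2 fold change 1.48, SE 0.60, edgeR adjusted p = 0.921) and 0 called by edgeR, DESeq2 or limma-voom, and 9 of the 16 spanned over 5-fold. The part of sampling hour or feeding in the values of G6pc and the Ppp1r3 genes was not tested.

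**Figure D4:**
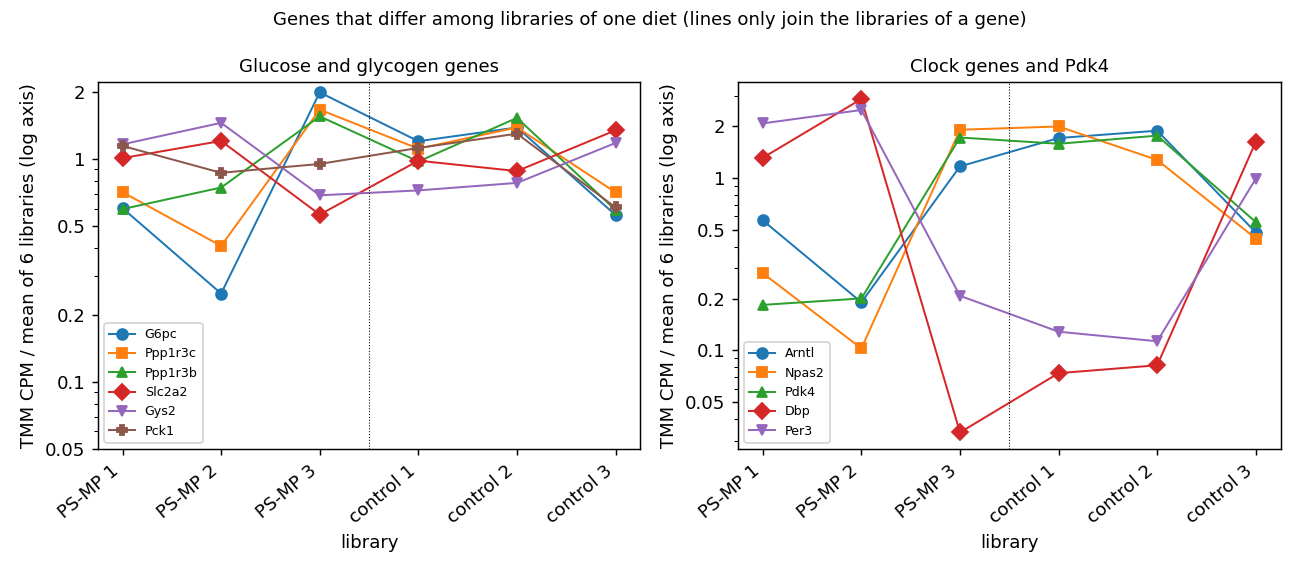
Level in each library divided by the mean of the gene over 6 libraries, on a log axis, for 6 glucose and glycogen genes (left) and for clock genes with Pdk4 (right), with PS-MP libraries left of the dotted line. G6pc, Ppp1r3c, Ppp1r3b, Arntl, Npas2 and Pdk4 are higher in PS-MP replicate 3 and control replicates 1 and 2 than in the other 3 libraries, and Gys2, Dbp and Per3 are lower there.

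One form of each pair outweighed the other in every library when levels were taken per kilobase of exon. Pck1 averaged 763 ± 110 CPM per kilobase in PS-MP and 779 ± 278 in control, where Pck2 had 0.432 ± 0.0471 in PS-MP and 0.410 ± 0.0851 in control (SD, n = 3 each). Ldha was 165 to 265 times Ldhb in PS-MP and 173 to 325 times in control, and Pgm1 was 79.7 to 131 times Pgm2 in PS-MP and 74.3 to 101 times in control. Slc2a2 was 6.21 to 14.1 times Slc2a1 in PS-MP and 9.42 to 14.5 times in control. The phosphofructokinase genes were closer, with Pfkl 1.61 to 1.79 times Pfkm in PS-MP and 1.59 to 1.82 times in control. Among these pairs the ratio of Eno1 to Eno3 was the one that did not overlap between diets, which follows from Eno3.

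**Figure D5:**
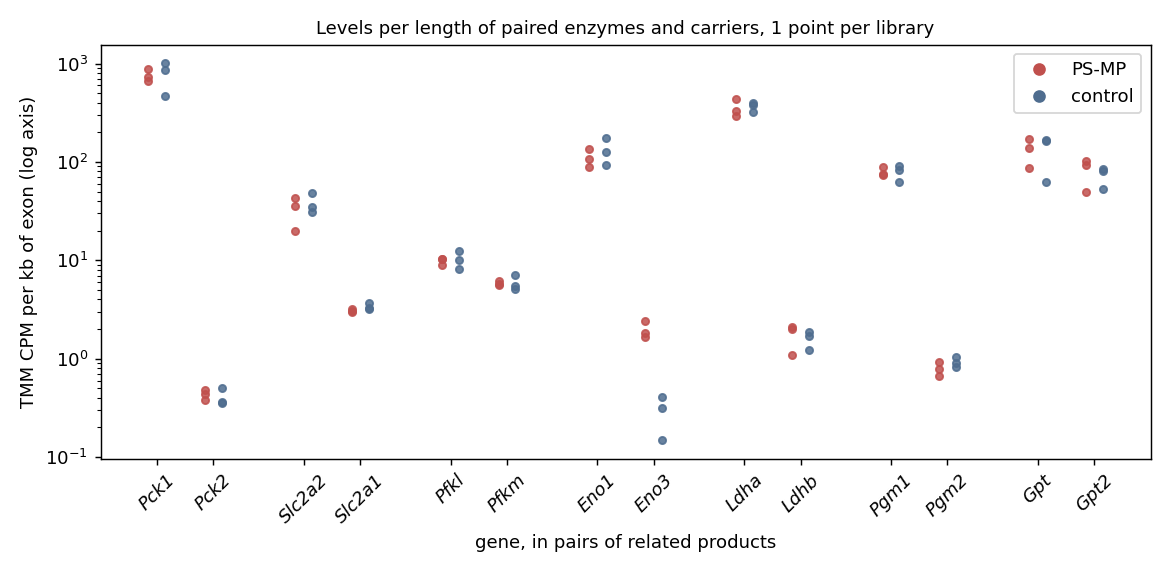
Level per kilobase of exon on a log axis for 7 pairs of related genes, 1 point per library, with PS-MP (red) left of control (blue). Pck1, Ldha, Eno1 and Pgm1 stand far above their partners, and the Eno3 points of the diets are apart.

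The rest of the pathway showed no call either. Of 97 further genes fixed as other enzymes of sugar and glycogen, pyruvate entry, the pentose phosphate route and their regulators, 91 were tested and edgeR, DESeq2 and limma-voom each called 0. By edgeR, 2 had an unadjusted p under 0.05 and were higher in PS-MP, Pfkfb2 and Foxo3, and 3 had one and were lower, Pdp2, Pklr and Pdha1. Of all genes tested, 2.8% passed that p and were higher and 2.58% passed it and were lower. The log2 fold change was below 0 for 60 of the 91 (65.9%), against 47.2% of all genes. Their median was -0.09, where that of all genes was 0.02. The shift of 0.21 under library size alone applies to all genes, so it is no measure of this gap. These lists were chosen with earlier results of these data known. Pdp2, a phosphatase that activates pyruvate dehydrogenase, had 18.8, 21.8 and 25.6 CPM in PS-MP against 30.6, 33.5 and 36.9 CPM in control, without overlap (log2 fold change -0.61, SE 0.16, edgeR adjusted p = 0.774). Pfkfb2, another enzyme of fructose 2,6-bisphosphate, averaged 12.3 ± 3.84 CPM in PS-MP and 7.07 ± 2.18 CPM in control (SD, n = 3 each; log2 fold change 0.80), and Foxo3, a forkhead factor, had 0.33.

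Of 12 tested genes that feeding induces, some of them also in those lists, 10 were below 0 (47.2% of all genes were), with a median of -0.60. Of these 12, 4 had an unadjusted edgeR p under 0.05 (5.38% of all genes had). Of 14 that fasting induces 8 were below 0, with a median of -0.08 and 0 at that p. Both lists were chosen with earlier results of these data known, so the shares over all genes are no test of them. The lowest p values in these lists were those of the lipogenic genes Scd1 (log2 fold change -1.20, edgeR adjusted p = 0.805) and Me1 (-1.28, edgeR adjusted p = 0.828). Phkb, the beta subunit of phosphorylase kinase, was named after its values were seen, and it had 568, 30 and 24 counts in PS-MP against 23, 33 and 819 counts in control.

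Counts of several glycolytic genes share sequence with copies elsewhere in the genome. The files list 91 other genes whose transcripts match Gapdh over at least 200 bases at 95% identity or more, and together they held 187% to 209% of the counts of Gapdh itself. Copies of Eno1 held 11% to 15.4%, that of Pgam1 11.5% to 13.5% and those of Pgk1 1.97% to 8.46% of the parent's counts, so the levels of these 4 genes are uncertain. No such copy was found for Eno3, Slc37a4, Gckr, Sik1, Pfkfb3, Pygl or G6pc. The spans of Pfkfb1 and Apex2, of Tkfc and Ddb1 and of other pairs overlap in an annotation of an earlier build. With no strand setting stated, reads from a stretch that a pair shares cannot be told apart, and their number was not tested.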

How the data were processed

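Liver RNA was poly(A) selected and made into directional libraries, per the labels' protocols. Genome build GRCm39 and bcl2fastq come from the submitters' processing notes, with aligner, counter, annotation and strand setting not given in the sources used here. Per gene symbol, the authors deposited whole-number read counts, not normalised, in 1 file per library, and these 6 files were used. Rows that repeat a symbol (67 symbols) were added up.

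Counts were filtered (filterByExpr by diet, 17662 genes left), scaled by trimmed mean of M values and tested in edgeR 4.0.16 (R 4.3.3, quasi-likelihood), with diet as the one term and Benjamini-Hochberg adjustment over all genes. Intervals of 95% come from the standard error and moderated degrees of freedom (median 6.63). At the library totals of 68357478 to 112566641, 3 counts are worth 0.0284 to 0.0493 CPM. The fit was tested on simulated counts. limma 3.58.1 and DESeq2 1.42.0, other scalings and filters, removal of Rn18s-rs5 or mitochondrially encoded genes, a replicate block and leaving out each library were alternatives.

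Levels per kilobase used merged coding-transcript exons of GENCODE M21 (an earlier build), matched by symbol for all 47 members. Copies were found with minimap2 2.31. Promoter windows came from RefSeq for 42 of the 47 members. The members and lists were chosen with earlier results of these data known. Values in each library are given for the gene of highest mean level in each role, the 4 members of smallest p in each direction, those at an unadjusted p under 0.05 or without overlap, and that of widest spread. Over the pathway, feeding and clock lists pooled, the 3 genes of smallest p in each direction were named (Foxo3, Pfkfb2 and Per2 higher, Pdp2, Scd1 and Me1 lower), and any other gene was chosen after its values were seen.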

Additional observations from a re-analysis of the deposited data

How the results depend on the processing

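No member was called under any alternative except DESeq2, which called 1 (Eno3, log2 fold change 2.77, adjusted p = 1.79e-07) and 187 genes in all, where edgeR called 2. limma-voom called 1 gene in all. With library size alone 11 members were below 0 in place of 29 and the median of the members was 0.139, where the median of all genes was 0.23. Over the fits that left out 1 library, genes called numbered 0 to 4 (0 without control replicate 3, 1 without PS-MP replicate 1 or 3, 4 without control replicate 2), members called 0, members below 0 from 23 to 34, members with an interval inside 2-fold from 25 to 29 (33 with all libraries), and the median from -0.152 (without control replicate 2) to 0.0195 (without PS-MP replicate 2). For Eno3, Slc37a4, Gckr, Sik1, Pfkfb3 and Pygl the direction held in all 6 of these fits. The sign of the log2 fold change differed from the reported one for 18 members with library size alone, and for 3 to 12 members when 1 library was left out, and none of these members had a log2 fold change over 0.262 in size. With the replicate number as a block, 0 genes and 0 members were called, 28 members were below 0 and their median was -0.0790. Libraries that share a number deviated with correlations of 0.108, 0.139 and -0.128, so the numbers were not taken as pairs. The cause of these differences was not tested. With a filter of 1 CPM in 3 libraries Ppp1r3g, at 1 or 2 counts in 3 libraries, was not tested. Counts were low for that gene in those 3 libraries and, at 17 to 52, for Eno3 in control. For 14 members in all the interval reaches past a 2-fold difference.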
